A study of Mus musculus with 4 samples.

Results

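The genes described here encode the subunits of voltage-gated sodium channels, voltage-gated calcium channels and hyperpolarization-activated cation (HCN) channels, together with the sodium leak channel. They were taken from the count table by symbol among protein-coding genes: the sodium channel alpha subunits (Scn with a number and the letter a), the sodium channel beta subunits, the calcium channel pores Cacna1a to Cacna1i, Cacnb1 to Cacnb4, Cacna2d1 to Cacna2d4, Cacng1 to Cacng8, the Hcn genes and Nalcn. This gave 44 genes of 52636 in the table, 22027 of which were protein coding. Of the 44 genes, 37 had enough counts to be tested between genotypes, 4 had no count in any library and 3 had counts but did not pass the filter on low counts.

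RNA sequencing was done on cells sorted from the dentate gyrus of C57BL/6 mice aged 6 to 7 weeks. There were 2 libraries from Fmr1-/y knockout mice and 2 from wild type littermates, and the knockout genotype as written is that of males. The series names cells carrying the Dcx-DsRed reporter, in which a red fluorescent protein marks cells that express doublecortin, a microtubule protein of young neurons, although the protocol covers sorts of all living cells as well as of reporter-positive ones, 10000 cells each. The labels name neither the knockout allele nor the promoter fragment of the reporter, and they do not say whether the libraries of a genotype came from separate or pooled animals. The p-values below reflect only the spread among these 4 libraries, which may be technical.

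Voltage-gated sodium channels consist of a pore-forming alpha subunit with beta subunits and start the action potential, chiefly at the axon initial segment. Voltage-gated calcium channels have an alpha1 pore, many of them with an intracellular beta and an extracellular alpha2delta subunit. They couple voltage to transmitter release, gene expression and low-threshold firing. HCN channels open on hyperpolarization and shape the resting potential, and NALCN carries a background sodium leak. Newborn granule neurons of the dentate gyrus change from high input resistance and broad, calcium-dependent spikes to the firing of mature granule cells as they take up such channels. FMRP, the RNA-binding protein encoded by Fmr1, represses translation of many neuronal mRNAs and is known to bind the N-type calcium channel protein.

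The libraries held 5478224 to 7213759 counts, and levels are given in CPM, read counts relative to library size after correcting each library for its composition (TMM). Paired values of a genotype are given throughout as replicate 1, then replicate 2. Fmr1 itself stood at 73.1 and 91.6 CPM in wild type and at 43.4 and 29.7 CPM in knockout libraries, lower in both as the labels imply, with a log2 fold change of -1.17 ± 0.36 (SE) and an adjusted p of 0.9999 (edgeR). Markers of several cell types besides young neurons were present in all 4 libraries, and their amounts differed between libraries of the same genotype. The summed level of 8 markers of oligodendrocyte precursors was 533.2 and 3869 CPM in wild type replicates 1 and 2 and 904.8 and 4786 CPM in knockout replicates 1 and 2. For 14 markers of immature neurons, Dcx among them, the sums were 2679 and 1399 CPM in wild type against 3114 and 1561 CPM in knockout libraries in the same order. The replicate 2 libraries were thus richer in precursor markers and poorer in markers of young neurons in both genotypes. In bulk samples such as these, fewer cells of a type and less RNA per cell cannot be told apart.

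Paralogs in these families are alike enough that some sequencing reads cannot be assigned to 1 gene. In the longest coding transcripts of 43 of the 44 genes (GENCODE M21, GRCm38), 39 had no stretch of 100 bases, the read length, that also occurs in another gene. The other 4 were neighbours on chromosome 2: Scn1a with 1.22%, Scn2a with 1.53%, Scn9a with 1.96% and Scn3a with 2.95% of its 100-base windows shared with one another. Their counts may therefore exchange a small share of reads, depending on how the authors treated reads with several matches.

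In contrast, the HCN genes shared no 100-base window, even around the ion selectivity filter of their pore. The 75 coding bases around the filter lie in exon 4 of 8, and those of Hcn2, Hcn3 and Hcn4 are shown, with the 15 filter bases in capitals, because they hold the differences that separate reads of these genes in their pore. Hcn3 and Hcn4 had 67 of 75 bases identical, Hcn2 and Hcn4 had 63, and Hcn2 and Hcn3 had 60. The positions are chr10:79728923-79728997 for Hcn2 (plus strand), chr3:89150976-89151050 for Hcn3 (minus) and chr9:58855555-58855629 for Hcn4 (plus), all on GRCm38.
Hcn2: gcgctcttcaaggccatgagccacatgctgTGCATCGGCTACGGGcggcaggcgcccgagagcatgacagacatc
Hcn3: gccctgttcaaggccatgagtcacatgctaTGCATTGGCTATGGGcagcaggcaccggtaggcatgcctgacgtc
Hcn4: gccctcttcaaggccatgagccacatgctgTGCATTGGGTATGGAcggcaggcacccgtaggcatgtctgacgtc

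The first comparison asked whether loss of Fmr1 was accompanied by other levels of these channel mRNAs. No channel gene was called: 0 of 37 tested genes passed a Benjamini-Hochberg adjusted p under 0.05 over 14673 genes (quasi-likelihood F-test of edgeR), where the share called among all genes was also 0%. At an unadjusted p under 0.05 the test gave 0 of 37 channel genes in either direction, against 1.05% of all genes tested (0.470% higher and 0.579% lower in knockout), and DESeq2 and limma voom gave 0 as well, where over all genes they gave 246 and 87 genes and no call. The smallest unadjusted p among them was 0.131, for Scn3b. Estimates were above 0 (higher in knockout) for 23 genes (62.2%, beside 51.6% of all genes tested) and below 0 for 14. The median log2 fold change was 0.07 beside 0.02 for all genes tested. Scaled by library size alone the split was 17 above and 20 below, with a median of -0.002 beside -0.04 for all genes.

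For 32 of the 37 genes the log2 fold change was smaller than its own standard error. For 5 channel genes (13.5%) each knockout library exceeded each wild type library, beside 11.8% of all genes. For another 5 (13.5%) each was lower, beside 13.7% of all genes. These shares are near the background, so the separated genes named below describe these libraries. Among replicate 1 libraries alone the median log2 ratio of knockout to wild type was -0.14, and among replicate 2 libraries alone it was 0.22. The sign of that ratio was opposite in the 2 replicate numbers for 16 of the 37 genes. It was the same for 21 (56.8%), beside 51.0% of all genes tested.

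**Figure D1:**
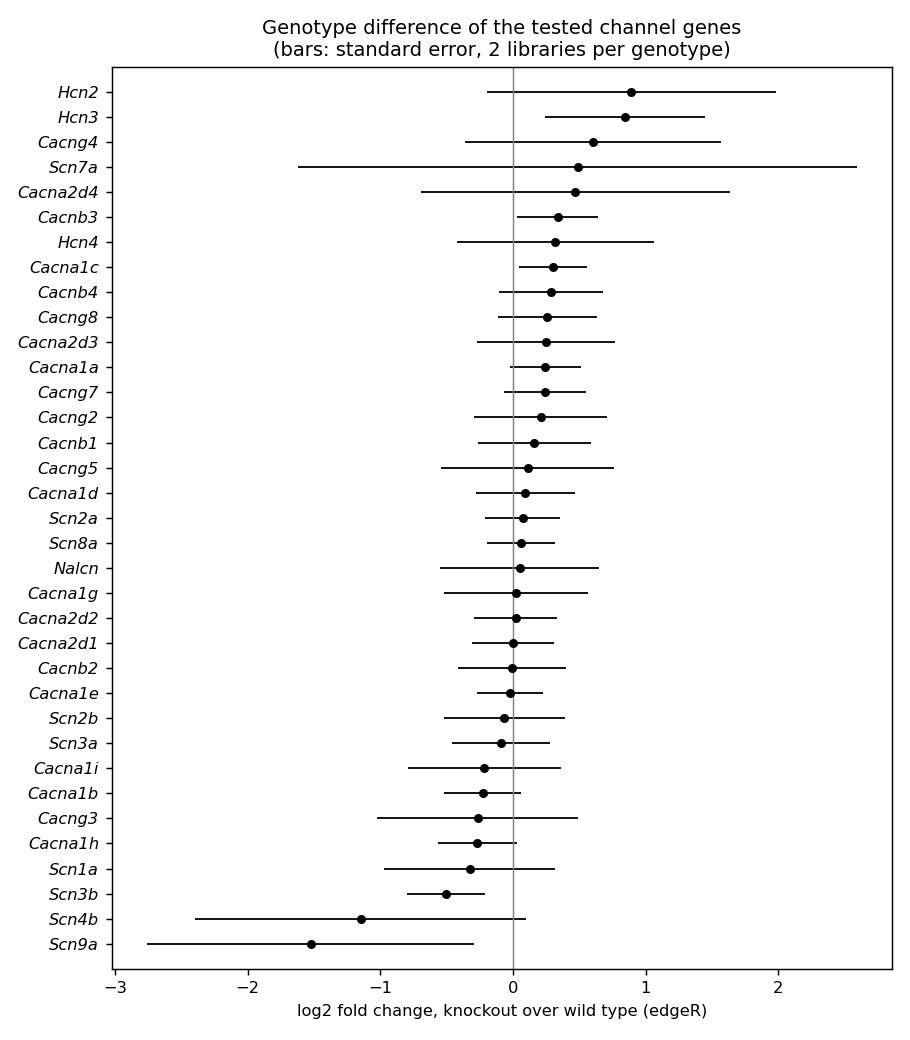
Log2 fold change (knockout over wild type, edgeR, horizontal axis) of 35 tested channel genes, with bars of 1 standard error and 2 libraries per genotype. Of the 35 bars, 30 reach or cross 0, and the estimates run from -1.53 for Scn9a to 0.89 for Hcn2.

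Levels of different genes are compared below per kb of the gene length deposited with the counts. Sodium channel pores were represented mainly by 4 genes, Scn8a, Scn2a, Scn3a and Scn1a. Scn8a, whose channel is the main one at the initial segment and nodes of mature axons, was the highest in 3 of the 4 libraries, at 20.02 and 18.8 CPM per kb in the wild type pair and 20.4 and 20.2 CPM per kb in the knockout pair. Scn2a, whose channel serves immature axons and unmyelinated fibres, was next with 17.0 and 17.2 CPM per kb in wild type against 15.4 and 20.5 CPM per kb in knockout libraries, a range that overlaps that of Scn8a and exceeds it in knockout replicate 2. Scn3a, a pore best known from embryonic neurons, lay below both in every library, at 7.40 and 10.75 CPM per kb in the wild type pair and 6.29 and 10.74 CPM per kb in the knockout pair. Scn8a made up 35.2% to 46.6% of the alpha subunit sum per kb, Scn2a 32.9% to 35.7% and Scn3a 14.4% to 20.6%.

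Scn8a, at 315.7 and 296.9 CPM in wild type against 320.9 and 318.5 CPM in knockout libraries, was among the steadiest members. Both knockout libraries were above both wild type ones by a narrow margin, with a log2 fold change of 0.06 ± 0.26 (SE). Scn2a had 215.8 and 218.6 CPM in the wild type pair and 195.7 and 261.0 CPM in the knockout pair, so the genotypes overlapped. Scn1a, whose channel is carried chiefly by inhibitory interneurons, had 50.5 and 41.6 CPM in wild type against 14.0 and 59.5 CPM in knockout libraries. The low value came from knockout replicate 1 alone: the log2 fold change was -0.33 ± 0.64 (SE), and without knockout replicate 2 it was -1.73 (unadjusted p 0.00549, adjusted p 0.997, edgeR). With 1 knockout library left, that fit takes its spread from the wild type pair alone and assumes that the lone library varies like them, and 3.76% of all genes in it had an unadjusted p under 0.05. The 10 interneuron markers summed to 96.0 and 118.1 CPM in the wild type pair and 112.0 and 187.3 CPM in the knockout pair. The highest sum was in knockout replicate 2. The lowest was in wild type replicate 1, not in knockout replicate 1, where Scn1a was low. In the replicate 1 libraries most of the sum came from Gad1 (wild type 62.6, knockout 60.3 CPM) and Cck (wild type 26.1, knockout 38.1 CPM). Pvalb, Npy and Lhx6 had no count in either of these libraries. The part of interneurons in the Scn1a result was not tested.

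The remaining alpha subunits were scarce. Scn9a, a pore of peripheral sensory neurons, had 3.56 and 9.07 CPM in the wild type pair and 3.07 and 1.30 CPM in the knockout pair, with 8 to 63 counts per library. Its knockout libraries were below both wild type ones, with a log2 fold change of -1.53 ± 1.23 (SE) and an unadjusted p of 0.256 (edgeR). Scn7a, a sodium sensor of glia related to these channels, had 0 and 25 counts in wild type and 7 and 24 counts in knockout replicates 1 and 2, higher in both replicate 2 libraries. Its log2 fold change between genotypes was 0.49 ± 2.11 (SE). The skeletal muscle pore Scn4a and the nociceptor pores Scn10a and Scn11a had no count in any library. A count of 0 here allows a level of up to 0.432 to 0.512 CPM per library (a limit of 3 counts, for counting error only).

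Sodium channel beta subunits, cell adhesion proteins that set the gating and surface level of the pores, all had estimates below 0 in edgeR fitted by genotype only, none of them called. Scn3b, a neuronal beta subunit, had 135.5 and 149.0 CPM in the wild type pair and 86.6 and 114.2 CPM in the knockout pair. Each knockout value was lower than each wild type value. The means were 142.2 ± 9.60 and 100.4 ± 19.5 CPM (SD, n = 2 each) for a log2 fold change of -0.50 ± 0.29 (SE), unadjusted p = 0.131 and adjusted p = 0.9999 in edgeR.

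Scn4b, a partner of resurgent sodium current in other neurons, showed the same order at a much lower level. It had 3.39 and 6.91 CPM in wild type against 1.71 and 2.92 CPM in knockout libraries, or 10 to 48 counts, with a log2 fold change of -1.15 ± 1.25 (SE). Scn2b had 62.4 and 105.8 CPM in the wild type pair and 51.2 and 109.7 CPM in the knockout pair, so that the replicate 2 library was the higher one in each genotype. Without wild type replicate 2, and likewise without knockout replicate 1, 2 of the 4 beta subunits had estimates above 0. With the replicate number as a block in edgeR, and likewise with limma voom, 1 of the 4 was above 0.

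**Figure D2:**
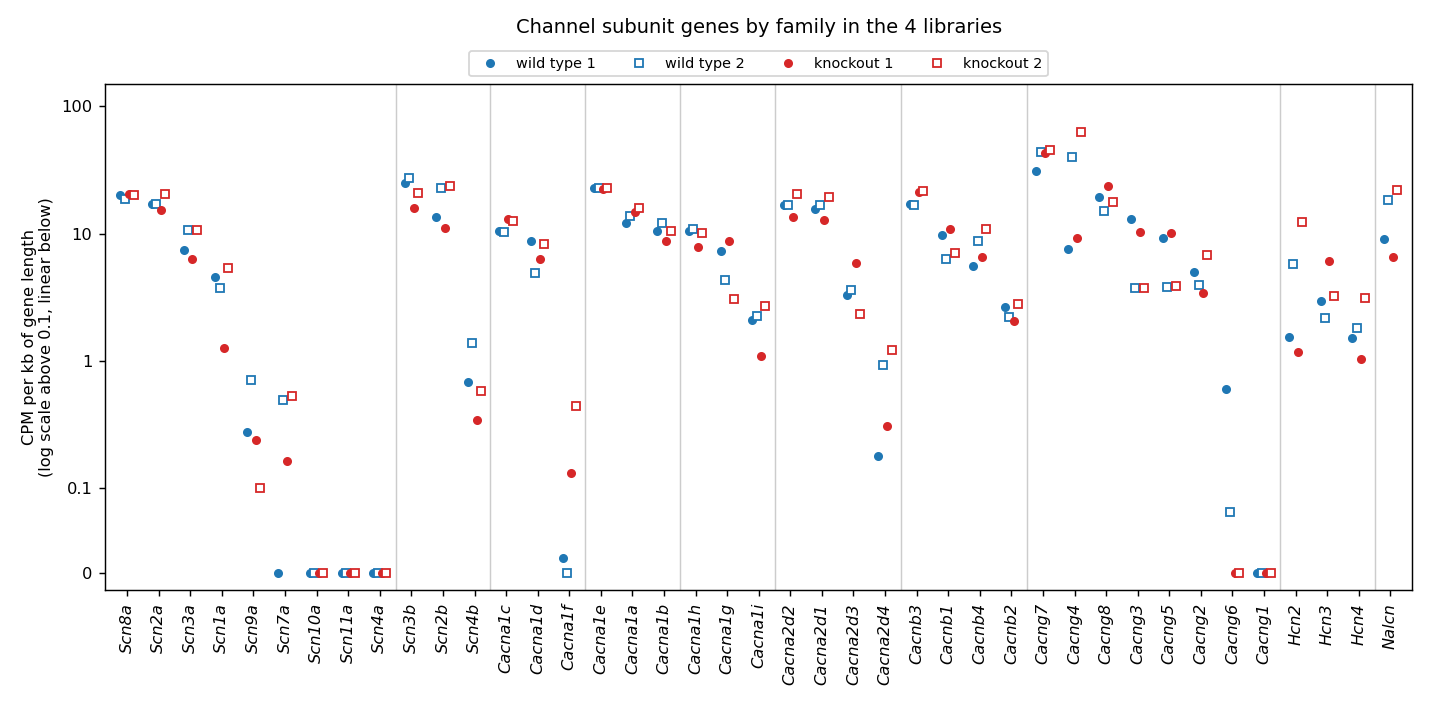
Level of 41 of the 44 genes (CPM per kb of gene length, log scale above 0.1 and linear below) in the 4 libraries, grouped by family and ordered by mean level within it. Blue marks wild type, red knockout, filled circles replicate 1 and open squares replicate 2. Levels run from 0 for Scn4a, Scn10a, Scn11a and Cacng1 to 63.2 CPM per kb for Cacng4 in knockout replicate 2.

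High-voltage-activated calcium channel pores were led by Cacna1e, the R-type pore. It had 576.9 and 573.1 CPM in wild type against 561.8 and 570.2 CPM in knockout libraries, the highest CPM of any channel gene, and these differed little among the 4 libraries. The knockout values lay just below the wild type ones, with a log2 fold change of -0.02 ± 0.25 (SE). Cacna1a, the P/Q-type pore of fast transmitter release, had 137.8 and 156.0 CPM in the wild type pair and 167.9 and 180.0 CPM in the knockout pair, which did not overlap. Its log2 fold change was 0.24 ± 0.27 (SE), with an unadjusted p of 0.394 (edgeR). Cacna1b, the N-type pore whose protein FMRP binds, had 103.6 and 120.4 CPM in wild type against 86.6 and 104.5 CPM in knockout libraries. These overlapped by a small margin, and the log2 fold change was -0.23 ± 0.29 (SE). Per length the order was Cacna1e, Cacna1a, Cacna1b in each library, and Cacna1e made up 46.3% to 50.5% of their sum.

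Of the L-type pores, which link depolarization to gene expression, Cacna1c was the higher per length in each library. It had 221.1 and 216.9 CPM in the wild type pair and 274.8 and 264.6 CPM in the knockout pair. The knockout libraries were both higher, with means of 219.0 ± 2.97 and 269.7 ± 7.24 CPM (SD, n = 2 each). The log2 fold change was 0.30 ± 0.26 (SE). That difference exceeds the spread between these replicates, but not the spread that edgeR fits from all genes (unadjusted p 0.282, adjusted p 0.9999). Cacna1d, which opens at more negative potentials, had 110.4 and 61.6 CPM in wild type against 79.3 and 104.2 CPM in knockout libraries. Its replicate 2 library was the lower one in wild type and the higher one in knockout. Exons of Cacna1d overlap Chdh on the opposite strand by 589 bases, and since the strand setting of the counting is not given in the sources used here, reads of the 2 genes may be mixed there. Cacna1f, the retinal L-type pore, had 1 and 0 counts in wild type and 7 and 25 counts in knockout libraries and was not tested.

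T-type pores open near the resting potential and support the low-threshold spikes of young granule neurons. Cacna1h was the highest on average, at 10.5 and 10.9 CPM per kb in the wild type pair and 7.79 and 10.04 CPM per kb in the knockout pair. It had 102.9 and 106.7 CPM in wild type against 76.0 and 98.0 CPM in knockout libraries, both knockout libraries lower, with a log2 fold change of -0.27 ± 0.30 (SE) and an unadjusted p of 0.395 (edgeR). Cacna1g, in contrast, had 74.3 and 44.2 CPM in the wild type pair and 89.3 and 31.1 CPM in the knockout pair. Both replicate 1 libraries were above both replicate 2 libraries, and the log2 fold change between genotypes was 0.02 ± 0.54 (SE). In knockout replicate 1 Cacna1g was above Cacna1h per length, unlike in the other 3 libraries. Cacna1i had 20.9 and 22.3 CPM in wild type against 10.8 and 26.4 CPM in knockout libraries.

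Among the auxiliary beta subunits, which carry calcium channels to the membrane and set their gating, Cacnb3 stood out for its small spread. It had 53.4 and 52.1 CPM in the wild type pair and 65.9 and 67.2 CPM in the knockout pair, with means of 52.8 ± 0.901 and 66.6 ± 0.925 CPM (SD, n = 2 each). Both knockout libraries were higher, with a log2 fold change of 0.34 ± 0.31 (SE), unadjusted p = 0.311 and adjusted p = 0.9999 in edgeR. Cacnb3 was also the highest of the 4 per length in every library and made up 48.8% to 52.0% of their sum. The summed level of the 4 genes was 35.1 and 34.1 CPM per kb in wild type against 40.7 and 42.4 CPM per kb in knockout libraries. Cacnb1 and Cacnb4 moved oppositely with replicate number: Cacnb1 had 44.1 and 28.8 CPM in the wild type pair and 49.4 and 32.1 CPM in the knockout pair. Cacnb4 had 49.8 and 79.1 CPM in wild type against 58.9 and 98.0 CPM in knockout libraries, the replicate 2 library being higher in each genotype.

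The alpha2delta subunits, which promote surface delivery of calcium channels and synapse formation, were mostly Cacna2d1 and Cacna2d2. Cacna2d2 had 132.4 and 134.2 CPM in the wild type pair and 108.0 and 162.2 CPM in the knockout pair, a log2 fold change of 0.02 ± 0.31 (SE). Cacna2d1 had 192.8 and 208.2 CPM in wild type against 158.0 and 242.4 CPM in knockout libraries. For both genes the knockout libraries lay on either side of the wild type ones, and their levels per kb differed by less than the spread between libraries. The order of these 2 genes depends on the length used: with the longest coding transcript in place of the deposited length, Cacna2d1 was at 50.9 and Cacna2d2 at 24.2 CPM per kb on average. Cacna2d3 had 28.7 and 31.5 CPM in the wild type pair and 51.1 and 20.4 CPM in the knockout pair. Cacna2d4, best known from the retina, had 1.70 and 8.78 CPM in wild type against 2.90 and 11.7 CPM in knockout libraries, higher in both replicate 2 libraries, with a genotype estimate of 0.47 ± 1.17 (SE).

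The gamma genes are named after calcium channels, but Cacng2, Cacng3, Cacng4, Cacng5, Cacng7 and Cacng8 encode TARPs, proteins that carry AMPA receptors to the synapse and shape their gating. All 6 of these were tested, while the muscle genes Cacng1, with no count in any library, and Cacng6, with 7 and 1 counts in wild type and none in knockout libraries, were not. Cacng7 was the highest on average, with 75.8 and 105.8 CPM in the wild type pair and 103.9 and 110.7 CPM in the knockout pair, which overlap by a narrow margin, and a log2 fold change of 0.24 ± 0.31 (SE). Cacng8, the TARP best known from the hippocampus, had 45.8 and 35.0 CPM in wild type against 55.2 and 41.3 CPM in knockout libraries. Both replicate 1 libraries were above both replicate 2 libraries.

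Cacng4 varied far more between libraries of a genotype than between genotypes. It had 27.3 and 142.8 CPM in the wild type pair and 32.8 and 225.9 CPM in the knockout pair, so the replicate 2 library was 5.23-fold higher in wild type and 6.89-fold higher in knockout. Between genotypes its log2 fold change was 0.60 ± 0.97 (SE). Cacng3 and Cacng5 went the other way. Cacng3 had 36.3 and 10.4 CPM in wild type against 28.4 and 10.4 CPM in knockout libraries, with a genotype estimate of -0.27 ± 0.76 (SE). Cacng5 had 35.1 and 14.5 CPM in the wild type pair and 38.8 and 14.7 CPM in the knockout pair, with an estimate of 0.11 ± 0.65 (SE). Both genes were higher in both replicate 1 libraries, and the genotypes overlapped. Cacng4 and Cacng5 lie near each other on the minus strand of chromosome 11 (chr11:107732357-107794557 and chr11:107874605-107915055), with Cacng1, which had no count, beside them at chr11:107703218-107716522 (GRCm38). Cacng4 made up 8.88% and 9.27% of the summed gamma level per kb in the replicate 1 libraries and 36.4% and 44.9% in the replicate 2 libraries.

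**Figure D3:**
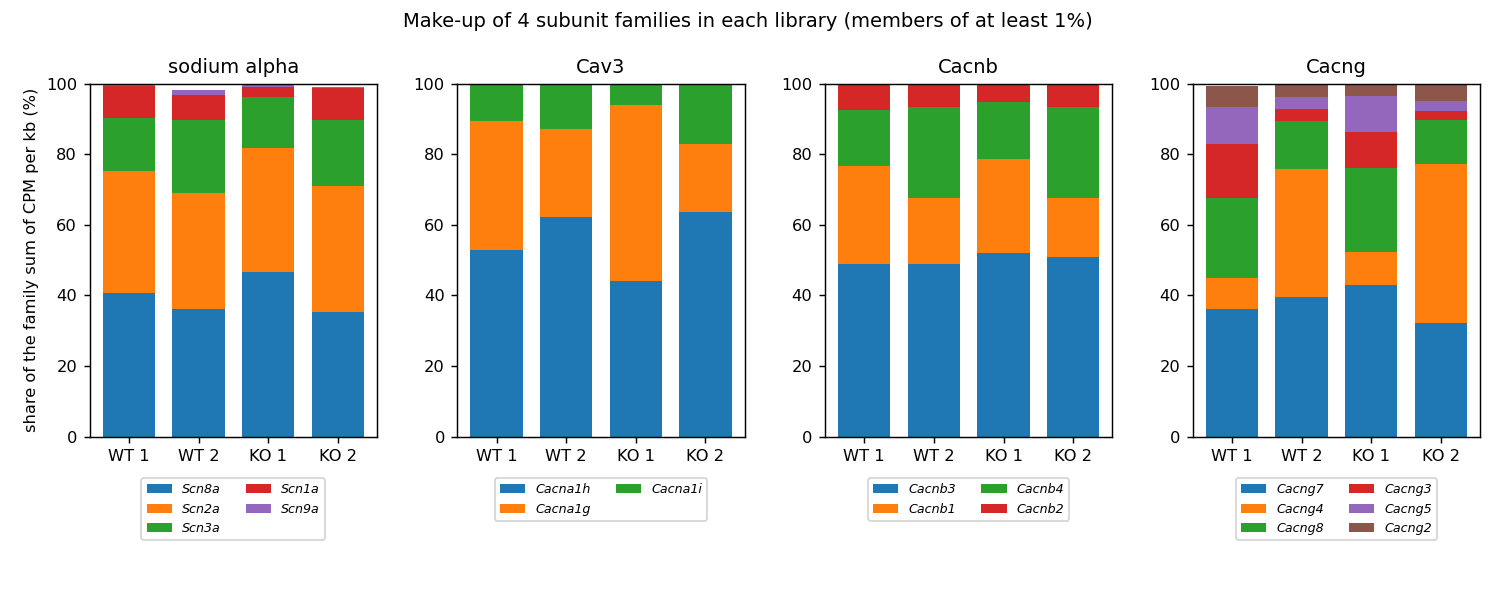
Share (%) of each gene in its family's summed CPM per kb, in wild type (WT) and knockout (KO) replicates 1 and 2, for the sodium alpha, T-type pore (Cav3), calcium beta (Cacnb) and gamma (Cacng) families. Genes that reach at least 1% in a library are drawn. Scn2a keeps 32.9% to 35.7% of the sodium alpha sum, while Cacng4 goes from 8.88% and 9.27% in the replicate 1 libraries to 36.4% and 44.9% in the replicate 2 libraries.

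HCN genes were low in all libraries, at 7.31 and 10.4 CPM per kb in wild type against 9.84 and 19.9 CPM per kb in knockout libraries for the 4 genes together. All 4 had estimates above 0 between genotypes, also under each other scaling, but none was called, and without knockout replicate 2 only 2 of the 4 were above 0. Hcn3 had 12.4 and 9.07 CPM in the wild type pair and 25.1 and 13.4 CPM in the knockout pair. Both knockout libraries were higher, with a log2 fold change of 0.85 ± 0.60 (SE), unadjusted p = 0.204 and adjusted p = 0.9999 in edgeR.

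Hcn2, the more strongly cyclic AMP-sensitive subunit, had 4.92 and 18.3 CPM in the wild type pair and 3.76 and 39.4 CPM in the knockout pair. Both replicate 2 libraries were well above both replicate 1 libraries, by 3.72-fold in wild type and 10.5-fold in knockout. The genotype estimate of 0.89 ± 1.09 (SE) rests on knockout replicate 2, without which it was -1.64. Without knockout replicate 1 it was 1.75, with unadjusted p = 0.0421 and adjusted p = 0.757 in edgeR, again with the spread from the wild type pair alone and with 6.57% of all genes at an unadjusted p under 0.05. Hcn4, the slow subunit of cardiac pacemaking, had 9.32 and 11.1 CPM in wild type against 6.32 and 19.1 CPM in knockout libraries. The leading HCN mRNA therefore differed by library: Hcn3 had the largest share per kb in the replicate 1 libraries, with 40.8% in wild type and 61.4% in knockout, and Hcn2 in the replicate 2 libraries, with 54.9% and 61.9%.

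Nalcn, the sodium leak channel, had 64.4 and 130.8 CPM in the wild type pair and 46.6 and 155.4 CPM in the knockout pair. The replicate 2 library was 2.03-fold higher in wild type and 3.33-fold higher in knockout, and the genotypes overlapped fully, with a log2 fold change of 0.05 ± 0.60 (SE). Without knockout replicate 2 the estimate was -1.08 (unadjusted p 0.0351, adjusted p 0.997, edgeR), in the same fit with 1 knockout library as for Scn1a. At 14.0 CPM per kb on average, Nalcn was above each HCN gene in every library.

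The spread between libraries of the same genotype was the larger pattern in these genes. Both replicate 2 libraries lay above both replicate 1 libraries for 16 of the 37 tested genes (43.2%), beside 26.0% of all genes tested, and below them for 6 (16.2%), beside 25.9% of all genes. The 16 higher genes included Cacng4, Hcn2, Scn7a, Cacna2d4, Nalcn, Scn2b, Scn2a and Scn3a, and the 6 lower genes included Cacng3, Cacng5, Cacna1g, Cacnb1 and Cacng8. These counts hold for TMM scaling and were not repeated under another scaling. The TMM factors of wild type and knockout were 1.08 and 1.04 in replicate 1 and 0.97 and 0.92 in replicate 2. Small differences, such as 1.01-fold for Scn2a in wild type, depend on that scaling. The replicate numbers come from the labels, which do not say what sets them apart.

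Several marker lists also differed by replicate number, though not all did. All 8 precursor markers, Pdgfra, Cspg4 and Olig2 among them, and all 8 oligodendrocyte markers were higher in both replicate 2 libraries, the precursor sum by 7.26-fold in wild type and 5.29-fold in knockout, and the oligodendrocyte sum by 5.90-fold and 2.56-fold. The oligodendrocyte sum ran from 1923 to 11354 CPM in wild type and from 4061 to 10413 CPM in knockout libraries. Of 13 immature neuron markers that were tested, 10 were lower in both replicate 2 libraries and 0 higher, and of 8 markers of dividing progenitors 6 were lower. Of 14 markers of mature granule neurons, 7 were higher and 2 lower, with sums of 2693 and 3501 CPM in wild type against 2851 and 4707 CPM in knockout libraries. Astrocyte and radial glia markers, 10 genes, summed to 11279 and 10169 CPM in wild type against 11556 and 8716 CPM in knockout libraries. Of these, 7 were lower and 1 higher in both replicate 2 libraries. Of 7 tested microglia markers 3 were higher and 0 lower, and of 7 tested vascular markers 1 was higher and 1 lower. The vascular sum of replicate 2 over replicate 1 was 1.56-fold in wild type and 0.65-fold in knockout. None of the markers in these lists was at 0 counts in all 4 libraries. Their part in the levels of the channel genes was not tested.

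**Figure D4:**
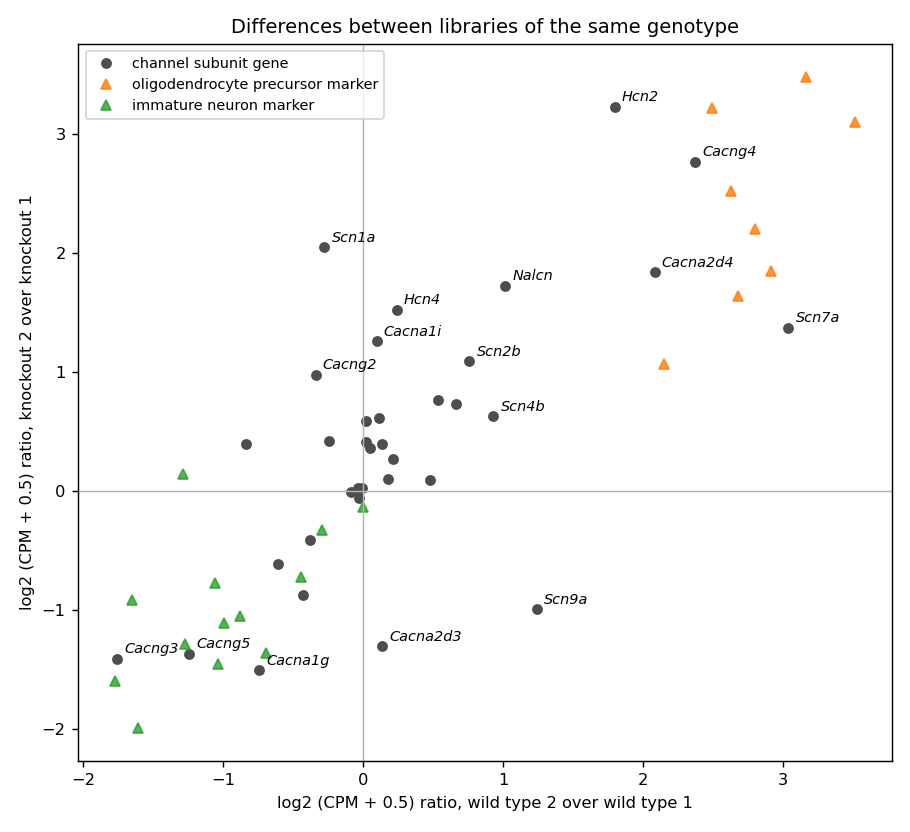
Log2 ratio of the replicate 2 to the replicate 1 library, on CPM + 0.5, in wild type (horizontal) and knockout (vertical) for 35 tested channel genes (grey), the 8 oligodendrocyte precursor markers (orange) and the 13 tested immature neuron markers (green). Cacng4 and Hcn2 lie at the upper right towards the precursor markers, and Cacng3, Cacng5 and Cacna1g lie at the lower left among the immature neuron markers.

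Genes for known partners of these channels were measured alongside, in 4 lists with 33 distinct genes, of which 30 were tested. None was called (0 of 30, beside 0% of all genes), and 0 had an unadjusted p under 0.05 in edgeR's test. Estimates were above 0 for 17 and below 0 for 13, where 51.6% of all genes tested were above 0, with a median of 0.04 beside 0.02 for all genes. Partners of sodium channels were led by Ank2, an ankyrin of axons and dendrites, at 907.2 and 994.3 CPM in the wild type pair and 888.0 and 1065 CPM in the knockout pair. In the calcium channel list, Rem1 and Stac had no count. The HCN partner list was led by Nedd4l, a ubiquitin ligase that also stands in the sodium list, at 324.0 and 244.1 CPM in the wild type pair and 268.2 and 227.6 CPM in the knockout pair. Unc80, a subunit of the NALCN complex, had 234.6 and 270.3 CPM in wild type against 221.7 and 358.4 CPM in knockout libraries. In Ank2, Nedd4l and Unc80 the genotypes overlapped. Pex5l, the brain HCN trafficking subunit TRIP8b, was chosen after its values were seen. It had 30.5 and 186.5 CPM in the wild type pair and 36.6 and 238.5 CPM in the knockout pair, higher in both replicate 2 libraries, as Hcn2 was. That order was common among the partners: 20 of the 30 tested were higher in both replicate 2 libraries and 6 were lower, Nedd4l among the latter. Over all genes tested the shares were 26.0% and 25.9%.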

How the data were processed

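The authors deposited raw counts per gene for 4 libraries, with a gene length in bases. The submitters' processing notes name STAR 2.5.3a and the GRCm38 build. The labels' protocols add that annotation came from Gencode. Which program counted the reads, its strand setting and the annotation release: not given in the sources used here. Libraries were strand-specific, poly(A)-selected and made from low RNA input, per the labels' protocols.

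Counts were filtered with filterByExpr (14673 genes kept), scaled by TMM and compared with edgeR 4.0.16 in R 4.3.3 (robust quasi-likelihood F-test, two-sided, genotype only). Calls used a Benjamini-Hochberg adjusted p under 0.05. The standard error is the size of the log2 fold change over the square root of F. The test was also run on simulated counts, both at the fitted spread (0.538) and at a spread well below it. Recovery of changed genes was required only at the lower spread, and recovery at the fitted spread is not given here. These runs are therefore not used to say what the test can detect in these libraries. Ratios between libraries used CPM plus 0.5 on the log2 scale. Positions and transcripts are from GENCODE M21, which held 99.56% of the gene IDs; whether the authors used that release is unknown. Replicates differed by more than counting noise (chi-square per degree of freedom of 38.2 in wild type and 54.2 in knockout).

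Genes described in full were the 4 separated genes with the smallest p per direction, the highest per length in each family, the 4 with the largest and the 4 with the smallest ratio between replicate numbers, and the partner with the highest mean CPM in each list. Scn1a and the other members are described by their values. A few of the genes so chosen, and a shared sequence, are not reported here. Members, gene lists and tests were chosen with earlier results of these data known. One listed partner, Fam155b, was matched by synonym to Tmem28. Other scalings and filters, DESeq2 1.42.0, limma voom (limma 3.58.1), a replicate block and leaving out each library were tried as alternatives.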

Additional observations from a re-analysis of the deposited data

How the results depend on the processing

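The count of called channel genes and of called partner genes stayed at 0 under each alternative run: 3 other scalings, 2 other filters, DESeq2, limma voom, an adjusted p under 0.1, the replicate block and leaving out each library. The labels give both genotypes the same replicate numbers without saying that a number marks a shared litter or day. Deviations from the genotype means correlated at 0.36 between same-numbered libraries. With the replicate number as a block, 10 genes of all those tested were called, none of them a channel or partner gene, and 2 channel genes had an unadjusted p under 0.05 (Scn3b 0.0222 and Cacng4 0.0460, adjusted p 0.852 and 0.928, edgeR). That is 5.41% of the channel genes, beside 5.3% of all genes in the same fit. Scaled by library size alone, 3 channel genes instead of 5 had both knockout libraries above both wild type ones (8.11%, beside 9.45% of all genes under that scaling).

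With 1 library left out at a time, 11 to 22 channel genes (28.2% to 56.4%) had knockout above wild type in every library left. Knockout was below for 7 to 18 (18.4% to 47.4%). Fewer libraries make separation easier, and the shares over all genes were 23.9% to 33.9% above and 28.6% to 37.1% below. Without knockout replicate 1, 56.4% of the channel genes were above, beside 33.9% of all genes. Without knockout replicate 2, 47.4% were below, beside 33.8% of all genes. In these fits the median log2 fold change of the channel genes was -0.32 to 0.27, beside -0.06 to 0.04 for all genes. The value of -0.32 came without knockout replicate 2, where the median of all genes was -0.06. The value of 0.27 came without knockout replicate 1, where the median of all genes was -0.05. Of 20 genes described in full, 10 kept the sign of their log2 fold change under each alternative. The sign turned with library size alone for Cacna1g (-0.0188), Cacna2d2 (-0.0593), Nalcn (-0.0306) and Scn8a (-0.00236), with upper quartile factors for Cacna2d2 (-0.00877), with the block for Cacna1g (-0.11), Cacna2d2 (-0.00847) and Nalcn (-0.10), and with limma voom for Cacna1g (-0.12), Cacna2d2 (-0.00842) and Nalcn (-0.11). Without 1 library it ranged from -0.93 to 0.58 for Cacna1g, -0.32 to 0.28 for Cacna2d2, -0.86 to 2.08 for Cacna2d4, -1.16 to 0.89 for Cacng3, -1.39 to 2.23 for Cacng4, -0.75 to 0.87 for Cacng5, -1.64 to 2.12 for Hcn2, -1.08 to 0.67 for Nalcn and -0.60 to 6.93 for Scn7a, which has no count in wild type replicate 1. The cause of these shifts was not tested.

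With 2 libraries per genotype and a common biological coefficient of variation of 0.538, the precision is limited: the median standard error of a channel gene was 0.43 on the log2 scale. With transcript lengths in place of the deposited gene lengths, which like the medians within each replicate number (-0.14 and 0.22) were tried after seeing the data, the highest gene per length changed in 1 of the families, the alpha2delta genes.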
